A study of Mus musculus with 9 samples.

Results

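The genes described here encode 9 secreted proteins or protein subunits by which antigen-presenting cells steer T helper cells, out of 57126 genes in the count table. They were Il12a, Il12b, Il23a, Ebi3, Il27, Il6, Il10, Il15 and Tgfb1, matched by symbol to the gene identifiers of the table, and all 9 were found. The mRNAs were measured by RNA sequencing in FACS-sorted pDCs (plasmacytoid dendritic cells) of the mouse, treated with oxidized mitochondrial DNA (Ox-mtDNA), with mitochondrial DNA (mtDNA) or with phosphate-buffered saline (PBS, the vehicle). Each group had 3 libraries, and the 9 libraries held 16029951 to 25378884 counts each. Strain, age, genotype, dose and length of treatment are not given in the sources used here, and the labels do not say whether replicates were separate cultures or animals. P-values therefore measure the spread between these samples, which may in part be technical.

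T helper cells take on different roles according to the cytokines they meet when they are activated. Interleukin-12 (IL-12) favours the interferon-gamma-producing T helper type 1 fate and is a pair of chains, p35 from Il12a and p40 from Il12b. IL-23, which maintains IL-17-producing cells, pairs the same p40 chain with p19 from Il23a, and IL-27 pairs the Ebi3 chain with p28 from Il27. IL-6 favours T follicular helper and IL-17-producing cells, IL-10 restrains inflammation, IL-15 sustains natural killer and memory CD8 T cells, and TGF-beta 1, from Tgfb1, favours regulatory T cells. Plasmacytoid dendritic cells are best known as producers of type I interferon after their endosomal Toll-like receptors meet nucleic acids. RNA levels do not report secreted protein, and for the paired cytokines both chains are needed for the active molecule.

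The promoters of 3 genes are shown: Il12b, whose mRNA separates the mtDNA group below, Il12a, its partner in IL-12 whose groups overlap, and Il6. The sequences are the 250 bases before an annotated start, from RefSeq on build GRCm38.p6, on the plus strand, and capitals mark matches to 4 motifs searched on both strands.
Il12b, chr11:44399813-44400062: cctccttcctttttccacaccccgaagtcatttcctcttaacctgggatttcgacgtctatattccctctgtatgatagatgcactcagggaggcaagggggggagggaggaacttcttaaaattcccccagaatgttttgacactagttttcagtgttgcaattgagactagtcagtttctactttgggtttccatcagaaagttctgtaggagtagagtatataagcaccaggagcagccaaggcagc
Il12a, second of its annotated starts, chr3:68691174-68691423: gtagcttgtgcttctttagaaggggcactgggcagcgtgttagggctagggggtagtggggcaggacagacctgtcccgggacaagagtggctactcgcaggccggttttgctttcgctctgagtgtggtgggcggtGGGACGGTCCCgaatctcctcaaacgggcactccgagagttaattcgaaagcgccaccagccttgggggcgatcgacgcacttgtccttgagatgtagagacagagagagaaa
Il6, chr5:30012864-30013113: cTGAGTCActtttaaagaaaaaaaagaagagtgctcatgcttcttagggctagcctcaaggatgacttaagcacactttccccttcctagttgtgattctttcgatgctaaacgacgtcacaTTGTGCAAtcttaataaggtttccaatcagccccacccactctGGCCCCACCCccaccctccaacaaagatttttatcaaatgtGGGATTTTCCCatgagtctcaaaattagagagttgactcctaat
The motifs were kappaB (GGG and CC with 5 bases of any kind between), AP-1 (TGA and TCA with 1 base between), C/EBP (TTGC and AA with 2 between) and ISRE (GAAA and GAAA with 2 between). Of 32851 mouse promoter windows of the same length, 45.8% held the kappaB letters, 6.75% the AP-1 letters, 9.56% the C/EBP letters and 2.98% the ISRE letters. The Il6 window held an AP-1 match 249 bases before the start, a C/EBP match at 128 bases, and kappaB matches at 85, 44 and 43 bases, of which the last 2 overlap on opposite strands. The Il12a window held 2 overlapping kappaB matches on opposite strands, 113 and 112 bases before the start, and the window of the other annotated Il12a start held no match to any of the 4 motifs. None of the 4 sets of letters was found in the Il12b window. A match is a run of letters and not a measured binding site. Likewise, a window without a match may still hold a site whose letters differ from these fixed patterns.

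The libraries labelled replicate 3 stood apart from all others in every group. The first principal component, with 70.7% of the variance of log2 CPM (counts after scaling for library size), separated them from the libraries of replicates 1 and 2. Xist, which silences one X chromosome in female cells, had 818 to 2090 CPM in the replicate 3 libraries and 0 to 0.846 CPM in the others. Genes of the Y chromosome summed to 1.18 to 5.52 CPM in replicate 3 and to 259 to 378 CPM elsewhere. Genes whose transcripts have a GC content of 60% or more, 839 of them, were lower in replicate 3 than in replicates 1 and 2 by a median log2 of -3.03 in Ox-mtDNA, -3.12 in mtDNA and -3.34 in PBS. Each treatment had 1 such library, so the replicate number is balanced across the groups. Unless stated otherwise, the p-values below come from tests without the replicate number, and the spread they use includes this difference. For the 9 cytokine genes, values that rest on replicate 3 are given with and without it. For other genes the differences by replicate number are given for some, and a fold change given without them may rest on 1 replicate.

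Markers of pDCs, 15 genes such as Siglech and Tcf4, summed to 4360 to 7590 CPM in Ox-mtDNA, 6750 to 9170 CPM in mtDNA and 8120 to 10800 CPM in PBS. Siglech itself, a surface receptor that defines mouse pDCs, had 1194 to 2440 CPM over the 9 libraries. The summed ranges of Ox-mtDNA and PBS did not overlap. In bulk RNA, fewer cells of a type and less RNA per cell cannot be told apart. Markers of type 1 conventional dendritic cells (8 genes) summed to 251 to 381 CPM in Ox-mtDNA, 190 to 570 in mtDNA and 327 to 643 in PBS. Markers of type 2 conventional dendritic cells (8 genes) summed to 97.8 to 196 CPM in Ox-mtDNA, 155 to 223 in mtDNA and 223 to 229 in PBS. Monocyte and macrophage markers (14 genes) summed to 690 to 1150 CPM in Ox-mtDNA, 968 to 1120 in mtDNA and 1220 to 2270 in PBS. B cell markers (10 genes) summed to 194 to 735 CPM in Ox-mtDNA, 240 to 300 in mtDNA and 369 to 480 in PBS. T and natural killer cell markers (10 genes) stayed between 29.2 and 64.3 CPM and neutrophil markers (8 genes) between 1.54 and 18.1 CPM over all libraries. No marker was at 0 in all 9 libraries, while 4 of the 8 neutrophil markers and 3 of the 10 T and natural killer markers were under 1 CPM in every one.

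Set on one scale per kilobase of exon, the 9 mRNAs spanned a wide range of levels. In PBS, Tgfb1 had 86.5 ± 75.1 CPM per kb, Il12a 18.8 ± 8.15 and Ebi3 11.6 ± 4.85 (SD, n = 3 each). Il10 followed at 0.971 ± 0.334 CPM per kb, Il15 at 0.81 ± 0.533, Il27 at 0.44 ± 0.211, Il12b at 0.313 ± 0.128, Il6 at 0.143 ± 0.0963 and Il23a at 0.0447 ± 0.0211 (SD, n = 3 each). Only Ebi3 and Il10 were neighbours in this order whose PBS ranges were separate, at 6.15 to 15.4 and 0.675 to 1.33 CPM per kb. Tgfb1, Il12a and Ebi3 held the top 3 places in all 3 groups by mean. Within replicate 3, however, Tgfb1 had 2.18 CPM per kb in Ox-mtDNA, 2.10 in mtDNA and 0.977 in PBS, below Il12a and Ebi3 in each group and below Il10 in mtDNA and PBS. Il12b changed place most between groups, ranking 8 of 9 in Ox-mtDNA, 4 in mtDNA and 7 in PBS.

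**Figure D1:**
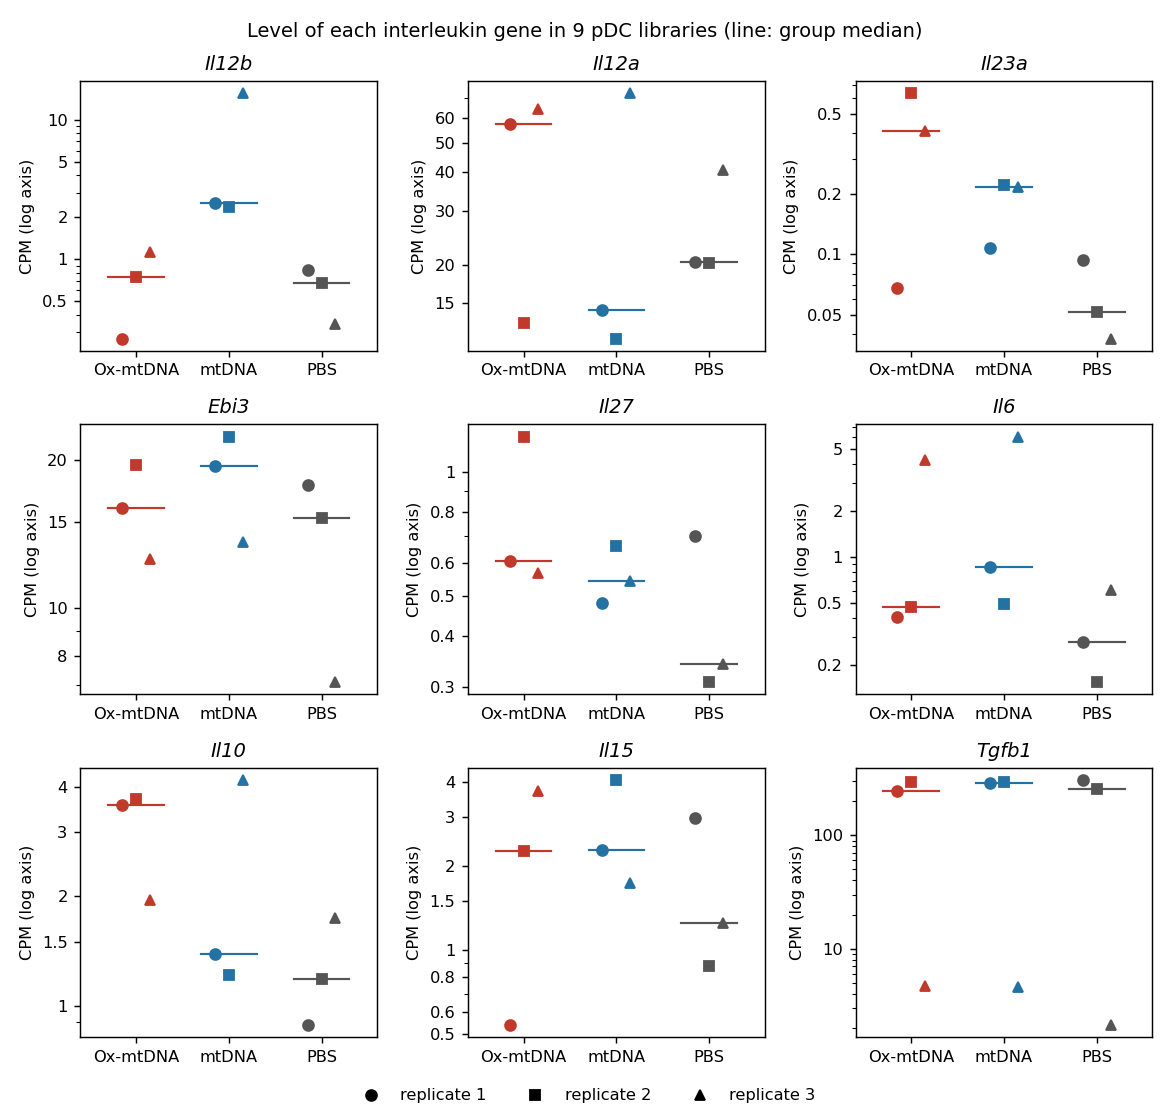
Level of each of the 9 mRNAs in CPM on a log axis, with 1 point per library, its shape giving the replicate number and the line the group median, for Ox-mtDNA, mtDNA and PBS. The 3 mtDNA libraries sit above all others for Il12b, and replicate 3 lies far below replicates 1 and 2 for Tgfb1.

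Il12b (ENSMUSG00000004296.15, chromosome 11, 44290890 to 44304860 on GRCm39, plus strand), the p40 chain shared by IL-12 and IL-23, was higher with mtDNA than in either other group. It had 0.27, 0.741 and 1.13 CPM in Ox-mtDNA replicates 1, 2 and 3, against 2.51, 2.37 and 15.4 CPM in mtDNA and 0.837, 0.67 and 0.342 CPM in PBS. These stand on 4, 14 and 22 counts in Ox-mtDNA, 47, 43 and 284 counts in mtDNA, and 18, 13 and 9 counts in PBS. All 3 mtDNA libraries lay above all 6 others, while Ox-mtDNA and PBS overlapped. The means were 0.715 ± 0.433 CPM in Ox-mtDNA, 6.77 ± 7.51 in mtDNA and 0.616 ± 0.252 in PBS (SD, n = 3 each).

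For mtDNA against PBS, Il12b had a log2 fold change of 3.45 (SE 0.933, 95% interval 1.31 to 5.59), with an unadjusted p of 0.00569 and an adjusted p of 1 by edgeR's quasi-likelihood test. The same-numbered libraries differed by 1.47, 1.68 and 5.13 in log2 CPM, so replicate 3 gave the widest gap. Without mtDNA replicate 3 the log2 fold change was 1.98, and with replicates 1 and 2 only it was 1.68 (95% interval 0.339 to 3.03). Ox-mtDNA against mtDNA gave -3.22 (SE 0.925, 95% interval -5.34 to -1.10), with an unadjusted p of 0.00782 and an adjusted p of 1. Differences by replicate number were -2.81, -1.55 and -3.65 here, and with replicates 1 and 2 only the value was -2.23 (95% interval -3.63 to -0.82). With the replicate number as a block the value was 2.87 (95% interval 0.989 to 4.74, adjusted p 0.853 by edgeR) for mtDNA against PBS and -2.94 (-4.77 to -1.12, adjusted p 0.729) for Ox-mtDNA against mtDNA. These comparisons share the mtDNA libraries. Ox-mtDNA against PBS gave 0.23 (SE 0.879, 95% interval -1.79 to 2.24), and the direction turned with replicates 1 and 2 only, at -0.54. The exact permutation test gave p = 0.1 for mtDNA against PBS and for Ox-mtDNA against mtDNA, the smallest 2-sided value that 3 against 3 libraries allow.

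The library with the most Il12b, mtDNA replicate 3, had the fewest type 1 conventional dendritic cell markers of all 9, at 190 CPM. In the other mtDNA libraries that sum was 570 and 554 CPM, against 616, 643 and 327 CPM in PBS. Its largest part in mtDNA was Wdfy4, with 360, 321 and 106 CPM in replicates 1, 2 and 3. Wdfy4 was also lowest in replicate 3 of the other groups, at 153 CPM in Ox-mtDNA and 33.9 CPM in PBS. The low sum of mtDNA replicate 3 therefore cannot be told apart from the general difference of replicate 3. B cell markers were lower in all mtDNA libraries than in all PBS libraries, and monocyte and macrophage markers were as well. The part of these markers in the Il12b difference was not tested.

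Il12a (ENSMUSG00000027776.13, chromosome 3, 68597977 to 68605880, plus strand), the p35 partner chain of IL-12, did not follow Il12b. It had 57.6, 13 and 64.3 CPM in Ox-mtDNA, 14.3, 11.5 and 72.4 CPM in mtDNA, and 20.4, 20.3 and 40.7 CPM in PBS. The 3 groups overlapped, and in mtDNA the level was below PBS in replicates 1 and 2 and above it in replicate 3. Log2 fold changes were 0.73 (95% interval -1.19 to 2.65) for Ox-mtDNA against PBS, 0.27 (-1.64 to 2.18) for mtDNA against PBS and 0.46 (-1.46 to 2.37) for Ox-mtDNA against mtDNA, each with an adjusted p of 0.928 or more by edgeR. The value for mtDNA against PBS was -0.66 with replicates 1 and 2 only and -1.07 without mtDNA replicate 3. For Ox-mtDNA against mtDNA it was 1.45 (95% interval -0.172 to 3.07) with replicates 1 and 2 only and 1.80 without mtDNA replicate 3. Across the 9 libraries the log2 levels of Il12a and Il12b had a Pearson r of -0.19 after each replicate number's mean was subtracted and 0.09 before. This is a description of libraries that share treatments and replicate numbers.

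Because both chains are read in the same library, their ratio does not depend on the scaling between libraries. Per kilobase, Il12a exceeded Il12b 291, 23.9 and 77.3 times in Ox-mtDNA replicates 1, 2 and 3. In mtDNA the ratio was 7.78, 6.63 and 6.39, and in PBS it was 33.3, 41.2 and 162. The mtDNA ratios lay within a narrow range below all 6 others, and p35 mRNA exceeded p40 mRNA in every library. This ratio was chosen after the values had been seen and was not tested. It rests on as few as 4 counts of Il12b, in Ox-mtDNA replicate 1.

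**Figure D2:**
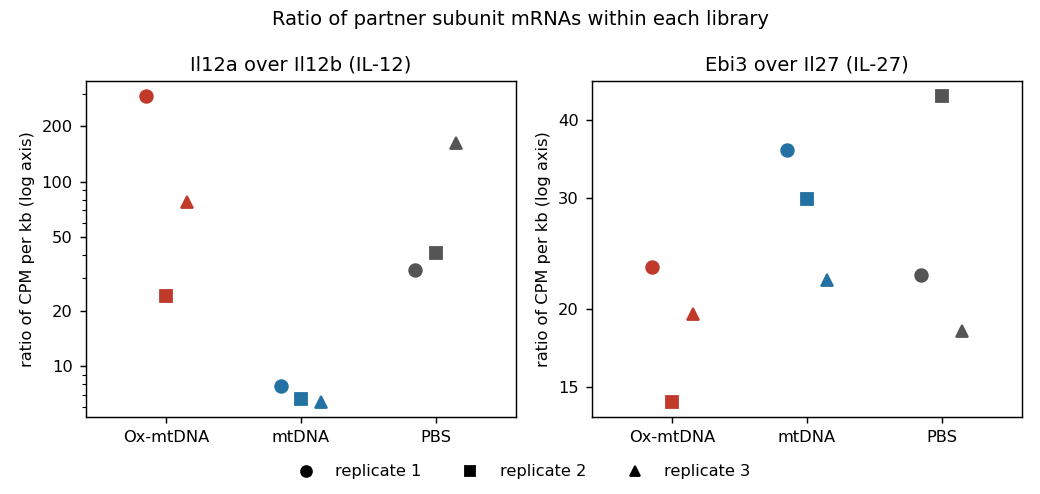
Ratio of the mRNAs of partner chains within each library, in CPM per kb on a log axis, with 1 point per library and its shape giving the replicate number. The Il12a over Il12b ratio lies between 6.39 and 7.78 in mtDNA and is 23.9 or more in Ox-mtDNA and PBS, whereas the Ebi3 over Il27 ratio overlaps among the groups.

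Il23a (ENSMUSG00000025383.3, chromosome 10, 128132008 to 128133953, minus strand), the p19 chain of IL-23, was near the limit of detection. It had 1, 12 and 8 counts in Ox-mtDNA, 2, 4 and 4 counts in mtDNA, and 2, 1 and 1 counts in PBS, and was the member that did not pass the filter on low counts. In CPM these are 0.0675, 0.635 and 0.413 with Ox-mtDNA, 0.107, 0.22 and 0.217 with mtDNA, and 0.093, 0.0516 and 0.038 in PBS. Ox-mtDNA replicates 2 and 3 were the highest of all. The mtDNA values lay above the PBS values, but replicate 1 had 2 counts in both groups, and the order there reflects library size only. With no filter the log2 fold change of Ox-mtDNA against PBS was 2.43 (95% interval -0.248 to 5.11, adjusted p 0.771 by edgeR). Per kilobase Il12b exceeded Il23a 16.2, 7.43 and 49.1 times in mtDNA, against 6.22, 8.99 and 6.22 times in PBS. In Ox-mtDNA this ratio was 2.77, 0.807 and 1.9, below every other library, and replicate 2 had more p19 than p40 mRNA. These ratios were also chosen after the values had been seen, and their counts are few.

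Ebi3 (ENSMUSG00000003206.8, chromosome 17, 56259640 to 56264022, plus strand) encodes a chain of IL-27 that is also part of IL-35. It had 16, 19.5 and 12.6 CPM in Ox-mtDNA, 19.4, 22.3 and 13.7 CPM in mtDNA, and 17.8, 15.3 and 7.10 CPM in PBS. The groups overlapped, but within each replicate number the mtDNA library was the highest. Its log2 fold change for mtDNA against PBS was 0.46 (SE 0.405, 95% interval -0.464 to 1.39, adjusted p 1 by edgeR). Ox-mtDNA against PBS gave 0.26 (SE 0.404, 95% interval -0.666 to 1.19). The exons of Ebi3 overlap the antisense gene Gm16712, whose count was 75.9% to 121% of that of Ebi3. The counting did not use strand and counted shared fragments for both genes, so reads from the pair cannot be told apart.

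Il27 (ENSMUSG00000044701.6, chromosome 7, 126188182 to 126194113, minus strand), the p28 chain of IL-27, was low, with 6 to 23 counts per library. It had 0.608, 1.22 and 0.567 CPM in Ox-mtDNA, 0.48, 0.661 and 0.544 CPM in mtDNA, and 0.698, 0.309 and 0.342 CPM in PBS. The groups overlapped, and the log2 fold change of Ox-mtDNA against PBS was 0.82 (SE 0.577, 95% interval -0.501 to 2.14, adjusted p 0.764 by edgeR). Its exons overlap Apobr, with 244 to 604 counts, so the Il27 counts may hold fragments of that gene. Per kilobase Ebi3 exceeded Il27 23.3, 14.2 and 19.6 times in Ox-mtDNA, 35.8, 29.9 and 22.2 times in mtDNA, and 22.6, 43.6 and 18.4 times in PBS. Unlike the IL-12 chains, these ratios overlapped among the groups.

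Il6 (ENSMUSG00000025746.12, chromosome 5, 30218112 to 30224979, plus strand) had higher CPM in both treated groups than in PBS within every replicate number, but the size of the difference came from replicate 3. It had 0.405, 0.476 and 4.23 CPM in Ox-mtDNA, 0.854, 0.496 and 6.04 CPM in mtDNA, and 0.279, 0.155 and 0.607 CPM in PBS. Counts in replicates 1 and 2 were 6 and 9 in Ox-mtDNA, 16 and 9 in mtDNA, and 6 and 3 in PBS, whereas replicate 3 had 82, 111 and 16. In replicate 1 Ox-mtDNA and PBS had equal counts, so their order there reflects library size only. PBS replicate 3 was above the first 2 Ox-mtDNA libraries and 1 mtDNA library, so the groups overlapped.

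The log2 fold change of Il6 was 2.26 (SE 1.28, 95% interval -0.668 to 5.19, adjusted p 0.642 by edgeR) for Ox-mtDNA against PBS. It was 2.79 (SE 1.29, 95% interval -0.187 to 5.76, adjusted p 1) for mtDNA against PBS. Same-numbered libraries differed by 0.412, 1.17 and 2.61 in log2 CPM for Ox-mtDNA and by 1.33, 1.22 and 3.11 for mtDNA. With replicates 1 and 2 only the values were 0.996 (95% interval -0.662 to 2.65) for Ox-mtDNA and 1.60 (-0.00622 to 3.20) for mtDNA. With the replicate number as a block they were 1.79 (95% interval 0.451 to 3.13, adjusted p 0.18 by edgeR) for Ox-mtDNA and 2.30 (0.985 to 3.62, adjusted p 0.763) for mtDNA. Without Ox-mtDNA replicate 3 alone the unblocked value was 0.32 for Ox-mtDNA, and without mtDNA replicate 3 alone it was 0.93 for mtDNA. Ox-mtDNA against mtDNA gave -0.52 (95% interval -3.27 to 2.22), and the sign turned to 1.33 without mtDNA replicate 3.

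Il10 (ENSMUSG00000016529.6, chromosome 1, 130947582 to 130952711, plus strand) was higher with Ox-mtDNA than with PBS. It had 3.58, 3.70 and 1.96 CPM in Ox-mtDNA, 1.39, 1.21 and 4.19 CPM in mtDNA, and 0.884, 1.19 and 1.75 CPM in PBS, from 19 to 77 counts a library. All Ox-mtDNA libraries lay above all PBS libraries, narrowly so in replicate 3. The means were 3.08 ± 0.972 CPM in Ox-mtDNA, 2.26 ± 1.67 in mtDNA and 1.27 ± 0.438 in PBS (SD, n = 3 each). The log2 fold change of Ox-mtDNA against PBS was 1.27 (SE 0.604, 95% interval -0.115 to 2.65), with an unadjusted p of 0.0676 and an adjusted p of 0.552 by edgeR.

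Same-numbered libraries differed by 1.90, 1.56 and 0.158 in log2 CPM, so here replicate 3 gave the smallest gap. With replicates 1 and 2 only the value for Il10 was 1.81 (95% interval 0.861 to 2.76, adjusted p 0.16 by edgeR), and Ox-mtDNA against mtDNA was 1.48 (0.544 to 2.42, adjusted p 0.202). The replicate block gave 1.40 (95% interval 0.0944 to 2.71, adjusted p 0.238) for Ox-mtDNA against PBS. For mtDNA against PBS the unblocked value was 0.83 (95% interval -0.55 to 2.2). It was 0.33 with replicates 1 and 2 only and 0.029 without mtDNA replicate 3. With all libraries and no block the Ox-mtDNA against mtDNA value was 0.44 (95% interval -0.919 to 1.81), since mtDNA replicate 3 had the highest Il10 of all. Beside this difference, the summed markers of pDCs, of type 2 conventional dendritic cells and of monocytes and macrophages were lower in every Ox-mtDNA library than in every PBS library. B cell markers were highest in Ox-mtDNA replicate 2, at 735 CPM. The part of these markers in the Il10 difference was not tested.

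Il15 (ENSMUSG00000031712.11, chromosome 8, 83058261 to 83129851, minus strand) showed no separation of the groups. It had 0.54, 2.27 and 3.71 CPM in Ox-mtDNA, 2.30, 4.08 and 1.74 CPM in mtDNA, and 2.98, 0.876 and 1.25 CPM in PBS. Replicate differences of Ox-mtDNA against PBS were -2.26, 1.28 and 1.49 in log2 CPM, so the sign varied between replicates. The log2 fold change was 0.36 (95% interval -1.38 to 2.09) for Ox-mtDNA against PBS and 0.67 (-1.07 to 2.40) for mtDNA against PBS.

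Tgfb1 (ENSMUSG00000002603.16, chromosome 7, 25386427 to 25404502, plus strand) was the most abundant of the 9 mRNAs in replicates 1 and 2, and nearly level across treatments there. It had 248, 294 and 4.75 CPM in Ox-mtDNA, 289, 296 and 4.57 CPM in mtDNA, and 308, 254 and 2.13 CPM in PBS. Every replicate 3 library was far lower, by a log2 of -5.80 in Ox-mtDNA, -5.97 in mtDNA and -6.97 in PBS against the mean of its group's replicates 1 and 2. The transcript of Tgfb1 has a GC content of 62.5%, above that of 98% of tested genes, and the promoter window of the gene has one of 75.2%. The part of GC content in the low replicate 3 values of Tgfb1 was not tested.

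In the fit that ignored the replicate number the fold change of Tgfb1 was poorly resolved, with a log2 of -0.05 (95% interval -4.24 to 4.14) for Ox-mtDNA against PBS and 0.06 (-4.13 to 4.25) for mtDNA against PBS. With replicates 1 and 2 only the values were -0.05 (95% interval -0.54 to 0.431) and 0.06 (-0.429 to 0.543). With all 9 libraries and the replicate number as a block they were 0.29 (-0.373 to 0.945, adjusted p 0.62 by edgeR) and 0.34 (-0.318 to 0.995, adjusted p 0.868).

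**Figure D3:**
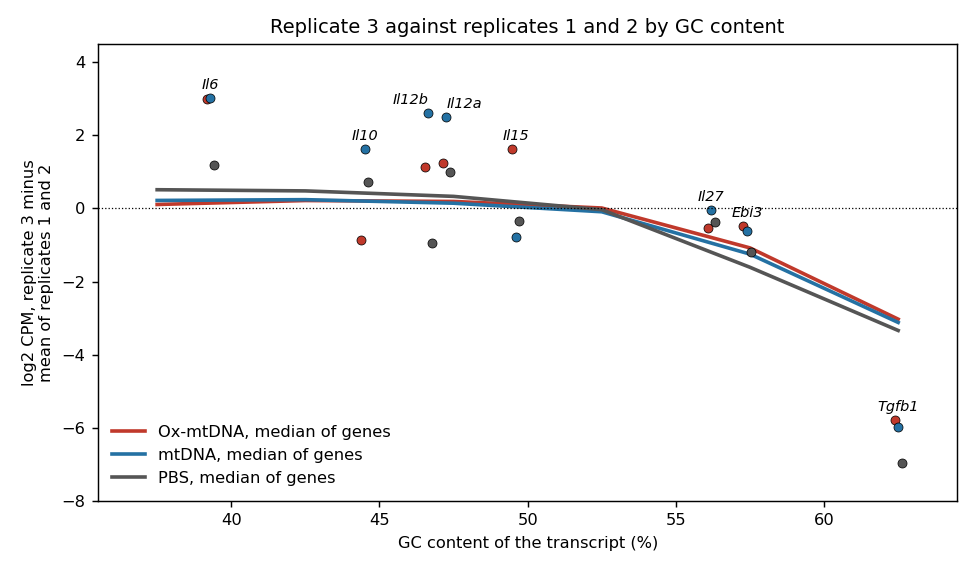
Difference in log2 CPM between replicate 3 and the mean of replicates 1 and 2 (y axis) against GC content in percent (x axis), with lines for the median of genes in GC classes drawn at evenly spaced midpoints, the open-ended classes at the ends, and points for the 8 tested cytokine genes, moved slightly sideways to separate them. Colours give the treatment. The medians fall to between -3.03 and -3.34 at 60% or more, Tgfb1 lies below the lines, and Il6 (39.3% GC) lies above them.

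Across the 8 tested genes, none passed an adjusted p of 0.05 in any comparison. That matched the background, since 0 of 17555 genes (0%) passed with edgeR for Ox-mtDNA against PBS, 0 (0%) for mtDNA against PBS and 0 (0%) for Ox-mtDNA against mtDNA. At an unadjusted p under 0.05 there were 1722 genes (9.81%), 460 (2.62%) and 422 (2.4%) in these comparisons, and among the members none, 1 (Il12b) and 1 (Il12b). DESeq2's Wald test called 370 genes (2.12%), 14 (0.0836%) and 1 (0.00574%), none of them a member, and gave Il12b an adjusted p of 0.0888 for mtDNA against PBS. In a fit that kept the replicate number as a block, 1 gene passed for Ox-mtDNA against PBS (0.0057%), Kctd19, at an adjusted p of 0.0267 by edgeR, and 0 passed in the other comparisons (0% each).

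For mtDNA against PBS, 5 of the 9 members were higher in all 3 replicate numbers, namely Il12b, Il23a, Ebi3, Il6 and Il10 (Il23a with equal counts in replicate 1), against 20.8% of all tested genes, and none was lower, against 19.4%. In replicate 2 Il10 had 22 counts with mtDNA and 23 with PBS, a log2 CPM difference of only 0.0293. Among the 8 tested members the groups did not overlap for 1, Il12b, against 5.58% of tested genes that were higher without overlap, and none was lower without overlap, against 4.96%. For Ox-mtDNA against PBS, Il6 and Il10 were higher in all 3 replicate numbers, 2 of 9 against 20.2% of tested genes, and Il10 alone had groups that did not overlap, against 7.39%. Il6 had 6 counts in both libraries of replicate 1, so its order there reflects library size only. No member was lower in all 3 replicate numbers (17.6% of tested genes) or lower without overlap (8.08%). For Ox-mtDNA against mtDNA, Il12b, Ebi3 and Il6 were lower in all 3 replicate numbers, 3 of 9 against 12.7% of tested genes, and Il27 was higher, 1 of 9 against 15.1%. Counts were equal, at 9 in both libraries, for Il6 in replicate 2 and for Il27 in replicate 1. The order in those replicates reflects library size only. Only Il12b had groups that did not overlap there, against 2.79% of tested genes that were lower without overlap, and no member was higher without overlap, against 2.04%. The comparisons share libraries, so these counts are not independent of each other. The members were also chosen with earlier results of these data known, so the shares are a description and not a test.

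**Figure D4:**
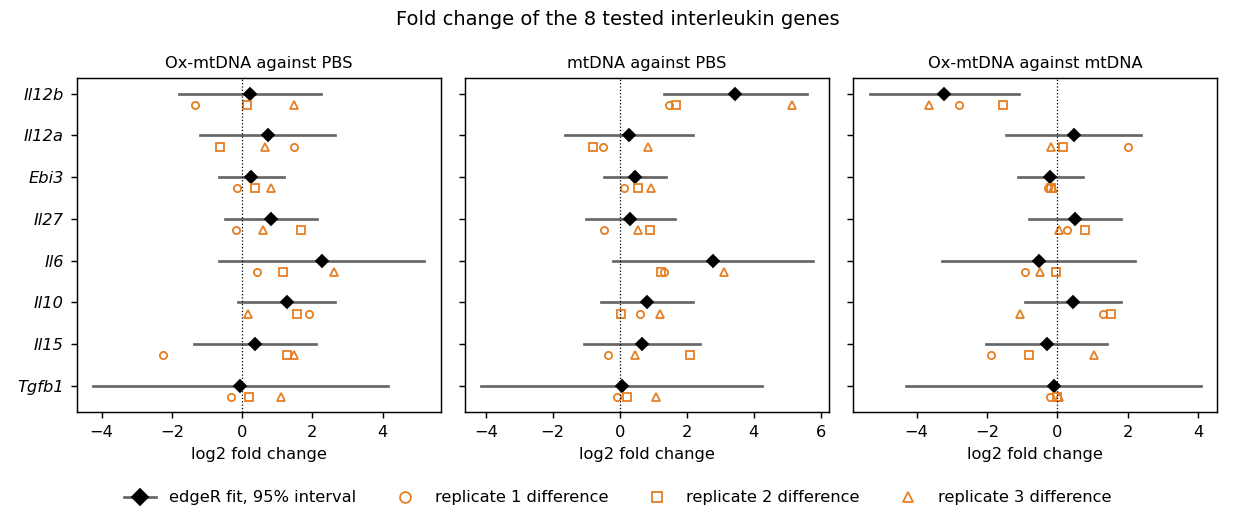
Log2 fold change (x axis) of the 8 tested genes for Ox-mtDNA against PBS, mtDNA against PBS and Ox-mtDNA against mtDNA, with black diamonds and grey bars for the edgeR fit and its 95% interval and open orange symbols for the difference between libraries of the same replicate number. The interval of Il12b excludes 0 for mtDNA against PBS (1.31 to 5.59) and for Ox-mtDNA against mtDNA (-5.34 to -1.10), and the intervals of Tgfb1 are the widest.

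Transcription factors that act on cytokine genes, 17 in number, had a median log2 fold change of 0.85 for Ox-mtDNA against PBS, beside 0.06 for all tested genes. Of the 17, 13 were positive, beside 9452 of all 17555 tested genes, and none passed the threshold. Groups did not overlap for 5 of the 17 in the higher direction, against 7.39% of all tested genes, and for 2 in the lower, against 8.08%. This list and those below were chosen with earlier results of these data known. Their shares and medians beside all tested genes are therefore a description and not a test. Without Ox-mtDNA replicate 2 the median was 0.43. Nfil3, a basic leucine zipper factor, had 19.5, 23.9 and 49.6 CPM in Ox-mtDNA, 7.31, 7.11 and 41.6 CPM in mtDNA, and 5.07, 4.02 and 4.44 CPM in PBS. Nfkbiz, an atypical IkappaB protein needed for Il6 induction, had 232, 113 and 165 CPM in Ox-mtDNA, 59.6, 47.0 and 334 CPM in mtDNA, and 36, 33.9 and 23.5 CPM in PBS. For both, every Ox-mtDNA and every mtDNA library lay above every PBS library.

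The log2 fold changes of Nfil3 were 2.78 (SE 0.766) for Ox-mtDNA and 2.05 (SE 0.745) for mtDNA against PBS, and those of Nfkbiz were 2.45 (SE 0.755) and 2.24 (SE 0.749). With mtDNA both rested largely on replicate 3, with differences by replicate number of 0.52, 0.806 and 3.20 for Nfil3 and 0.727, 0.469 and 3.82 for Nfkbiz. With Ox-mtDNA these were 1.92, 2.54 and 3.45 for Nfil3 and 2.68, 1.73 and 2.81 for Nfkbiz. Against PBS, Bhlhe40, a repressor of Il10 in T cells, was at 1.62 (SE 0.562) with Ox-mtDNA and at 1.24 (SE 0.556) with mtDNA, where the differences by replicate number were 0.382, 0.368 and 2.14. Irf1, an interferon regulatory factor that acts on Il12a, was lower with Ox-mtDNA than with PBS in all replicates, with 199, 153 and 120 CPM against 249, 314 and 389 CPM (log2 fold change -1.01, SE 0.283). In edgeR's test the adjusted p was 0.472 for each of these 4 genes with Ox-mtDNA and 1 for Nfil3, Nfkbiz and Bhlhe40 with mtDNA. Rel, an NF-kB subunit, completed the smallest p-values for mtDNA against PBS, with a log2 fold change of 0.95 (SE 0.471) and differences of 0.355, 0.261 and 1.66. The list's median was 0.62 for mtDNA against PBS (0.16 without PBS replicate 3), with 14 of 17 positive, beside 9131 of all 17555 tested genes. It was 0.05 for Ox-mtDNA against mtDNA. There Irf1 was at -0.74, Batf3 at -1.12, Maf at 1.96 and Nfil3 at 0.73.

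Receptors of these cytokines had a median log2 fold change of -0.47 for Ox-mtDNA against PBS, beside 0.06 for all tested genes, and of -0.98 without Ox-mtDNA replicate 2. Of 13 tested receptor genes 11 were negative, beside 8103 of all 17555 tested genes, and none passed the threshold. Il6st, the signalling chain gp130 of the IL-6 family and IL-27 receptors, had 132, 173 and 165 CPM in Ox-mtDNA, 340, 270 and 196 CPM in mtDNA, and 328, 255 and 454 CPM in PBS. Its Ox-mtDNA libraries lay below all others, with a log2 fold change of -1.14 (SE 0.313, adjusted p 0.472 by edgeR) against PBS and -0.78 (SE 0.311) against mtDNA. The other receptor genes with the smallest p-values for Ox-mtDNA against PBS were Il10rb (-0.79), Tgfbr1 (-0.56) and Il12rb2 (-0.63). For mtDNA against PBS the median was -0.13, and Il10ra, the ligand-binding chain of the IL-10 receptor, was at 0.46 (SE 0.237), Il6st at -0.37, Tgfbr1 at -0.31 and Tgfbr3 at -0.45. Here Il6st differed by 0.0518, 0.0786 and -1.21 by replicate number. Ox-mtDNA against mtDNA gave a median of -0.29, with Il10ra at -0.64 (SE 0.237), Il10rb at -0.67 and Il15ra at -0.78.

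Signalling genes downstream of these receptors, 15 JAK, STAT, SMAD and SOCS genes, had a median of -0.07 for Ox-mtDNA against PBS, 0.10 for mtDNA against PBS and -0.09 for Ox-mtDNA against mtDNA, and none passed. Stat4, which carries the IL-12 signal, was at 1.03 with Ox-mtDNA and 1.09 (SE 0.51) with mtDNA against PBS, and for mtDNA the groups did not overlap. Smad3 was at 1.22 and Smad7, an inhibitor of TGF-beta signalling, at 1.72 (SE 1.45) for Ox-mtDNA against PBS. By replicate number the Ox-mtDNA differences from PBS were -0.326, 2.39 and 0.571 for Stat4 and -1.08, 2.20 and 1.41 for Smad3. For mtDNA against PBS, Smad3 was at 0.59, Smad2 at -0.15 and Stat3 at 0.10. Ox-mtDNA against mtDNA gave Smad7 1.76, Jak2 -0.69 and Tyk2 -1.24.

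Genes of TGF-beta storage and activation had medians of 0.46 for Ox-mtDNA against PBS, 0.37 for mtDNA against PBS and 0.21 for Ox-mtDNA against mtDNA over 10 tested genes, none past the threshold. Without Ox-mtDNA replicate 2 the sign of this median turned, to -0.02 against PBS and -0.50 against mtDNA. Tgfb3, another TGF-beta isoform, had 28.6, 13.3 and 81.0 CPM in Ox-mtDNA, 3.36, 4.3 and 77.2 CPM in mtDNA, and 4.14, 3.51 and 1.56 CPM in PBS. Its Ox-mtDNA libraries lay above all PBS libraries, while in mtDNA the high value was that of replicate 3. The log2 fold change of Tgfb3 was 3.74 (SE 1.34, adjusted p 0.472 by edgeR) for Ox-mtDNA and 3.20 (SE 1.31, adjusted p 1) for mtDNA against PBS. By replicate number the differences were 2.76, 1.90 and 5.61 for Ox-mtDNA, but -0.292, 0.286 and 5.54 for mtDNA. For Ox-mtDNA against PBS, Tgfb2 was at 2.04 (SE 0.769), Lrrc32, which anchors latent TGF-beta at the cell surface, at 1.92, and the latent TGF-beta binding protein gene Ltbp4 at 1.10. The differences of Ltbp4 by replicate number were 1.26, 1.36 and -0.631. With mtDNA, against PBS, Ltbp1 was at 1.27, Lrrc32 at 1.70 and Thbs1, which can activate latent TGF-beta, at 0.36. Those of Thbs1 by replicate number were -0.219, 0.1 and 1.06. Ox-mtDNA against mtDNA gave Tgfb2 1.79, Ltbp1 -1.24, Nrros -0.41 and Ltbp4 0.55.

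Of 23 other interleukins and IL-6 family cytokines 8 could be tested, with medians of 1.02 for Ox-mtDNA against PBS, 0.59 for mtDNA against PBS and -0.17 for Ox-mtDNA against mtDNA, and none passed. The median for Ox-mtDNA against PBS was 0.48 without Ox-mtDNA replicate 2. Il1b, the precursor of IL-1 beta, had 50.8, 4.60 and 216 CPM in Ox-mtDNA, 18.2, 4.96 and 423 CPM in mtDNA, and 4.93, 0.361 and 2.09 CPM in PBS. Within every replicate number both treated libraries were above PBS, by log2 differences of 3.34, 3.34 and 6.62 for Ox-mtDNA and 1.86, 3.45 and 7.59 for mtDNA. In the edgeR fit the Il1b value was 5.19 (SE 2.05, adjusted p 0.482, log2 scale) with Ox-mtDNA and 5.91 (SE 2.12, adjusted p 1) with mtDNA. Il16, a T cell chemoattractant, was lower with Ox-mtDNA, at 73.7, 99.8 and 58.7 CPM, than with mtDNA (129, 138 and 120 CPM) or PBS (167, 139 and 196 CPM). Its log2 fold change was -1.11 (SE 0.271) for Ox-mtDNA against PBS, -0.37 for mtDNA against PBS and -0.74 (SE 0.269) for Ox-mtDNA against mtDNA.

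Of the IL-6 family, Lif had 2.23, 0.423 and 0.568 CPM in Ox-mtDNA, 0.0534, 0 and 0.870 CPM in mtDNA, and 0.093, 0 and 0 CPM in PBS. All Ox-mtDNA libraries were above all PBS libraries, at levels too low for a firm fold change. Osm was at 1.35 (SE 0.556) for Ox-mtDNA and 0.87 for mtDNA against PBS in log2. For Ox-mtDNA against mtDNA, Il18 was at -1.17 (SE 0.601), Cntf at 0.86, and Lif differed by 3.90, 2.36 and -0.537 by replicate number.

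The tested genes most like each cytokine gene over the 9 libraries were taken by the highest Pearson r of log2 CPM after subtraction of each replicate number's mean. They were Gm44672, Atoh8 and Plag1 for Il12b, with r of 0.984, 0.977 and 0.963, and of 0.871, 0.742 and 0.719 before the subtraction. For Il12a they were Timm44, Ahcy and Smyd3, with 0.99, 0.979 and 0.978, and 0.99, 0.97 and 0.972 before it. Il6 was most like Birc2, an inhibitor of apoptosis (0.991, and 0.984 before). Il10 was most like Rpl31-ps8, Gm3511 and Snord22, with 0.984, 0.982 and 0.974, and 0.599, 0.975 and 0.927 before.

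For several of the others r was much lower when the means were left in. Il27 was most like Arpp19, Klhdc2 and Wdr66, with 0.981, 0.978 and 0.975, against -0.135, 0.868 and 0.606 before the subtraction. Il15 was most like Gm34342, Pex16 and Inpp1, with 0.965, 0.945 and 0.937, against 0.89, 0.41 and 0.838 before. Tgfb1 was most like Rgs3, Gm12359 and Mfsd4a, with 0.991, 0.991 and 0.99, against 0.659, 0.993 and 0.629 before. For Ebi3 they were Gm10693 and 2 genes with no symbol, with 0.981 to 0.99, against -0.362 to -0.125 before. The other 2 places of Il6 were held by Gm10693 and 1 gene with no symbol, with 0.987 and 0.988, and 0.931 and 0.93 before. Each r is the highest of 17555 genes over 9 libraries that share treatments and replicate numbers, and is given as a description.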

How the data were processed

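Libraries were assigned to groups from their titles. The deposited table holds raw counts per gene and each gene's exonic length, unnormalized, and all 9 columns of counts were used. The submitters' processing notes name fastp 0.23.4, STAR 2.7.11b, featureCounts 2.0.1 and the build GRCm39. Per the file headers, the authors counted fragments over exons of the GENCODE M34 basic annotation, ignoring strand. Fragments over several genes were counted for each gene, and those with several alignments were left out.

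Genes were filtered in R 4.3.3 by filterByExpr (edgeR 4.0.16, minimum count 10), which left 17555, and scaled with TMM. The robust quasi-likelihood model had 1 coefficient per group over the 9 libraries, leaving 6 residual degrees of freedom. Its F-test was adjusted by Benjamini-Hochberg over all tested genes, with a threshold of 0.05. CPM uses the TMM library sizes. Log2 CPM, with a prior count of 2, gave the differences by replicate number, the correlations and the GC comparison. SE and 95% intervals come from the fit. GC content, from the longest coding transcript of GENCODE M21 (GRCm38), was known for 95.4% of tested genes.

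Same-numbered libraries deviated together, with correlations of deviations from group means of 0.487 to 0.897 in every pair. Because replicate 3 stood apart in every group and enters each group mean, such correlations can arise without pairing. They cannot show whether the libraries of replicates 1 and 2 are paired. The labels do not say what same-numbered libraries share. Alternatives were DESeq2 1.42.0 (size factors and Wald test), no filter, at least 1 CPM in 3 libraries, the replicate block, replicates 1 and 2 only, and each library left out. By chi-square per degree of freedom, replicates of a group differed by 15.4 to 347 times counting error.

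The members and lists were chosen with earlier results of these data known. Genes named from a list are those past the threshold or, with none, the 4 with the smallest unadjusted p in a comparison, and marker lists are given as summed levels. One gene this rule names is not reported here. Promoters came from RefSeq (GRCm38.p6), which listed 5 of the 9 genes.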

Additional observations from a re-analysis of the deposited data

How the results depend on the processing

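No member passed the threshold under any alternative. Of the members' values under the alternatives, 331 kept their direction and 23 turned, all in differences whose 95% interval included 0. The number of genes past the threshold for Ox-mtDNA against PBS was 0, against 370 with DESeq2's Wald test (260 higher, 110 lower), 25 with replicates 1 and 2 only and 1 with the replicate block. It was 0, against 14 with DESeq2 (13 higher, 1 lower), for mtDNA against PBS, and 0, against 1 with DESeq2, for Ox-mtDNA against mtDNA. The replicate block changed no other call, and the count stayed at 0 with any library left out. With the block, Il12b was at -0.076 and Tgfb1 at 0.29 for Ox-mtDNA against PBS and Il12a at -0.14 for mtDNA against PBS. With replicates 1 and 2 only, Il12b was at -0.54 and Il15 at -0.44 for Ox-mtDNA against PBS and Il12a at -0.66 for mtDNA against PBS. With each library left out, the log2 fold change for Ox-mtDNA against PBS ranged from -0.26 to 0.64 for Il12b, -0.0446 to 0.52 for Ebi3, -0.26 to 1.03 for Il15 and -0.63 to 0.53 for Tgfb1. For mtDNA against PBS it ranged from -1.07 to 0.69 for Il12a and -0.52 to 0.64 for Tgfb1. For Ox-mtDNA against mtDNA it ranged from -2.46 to 1.33 for Il6, -0.93 to 0.19 for Il15 and -0.68 to 0.46 for Tgfb1. The cause of these turns was not tested. Of the list medians, 210 moved by less than the spread between replicates and 15 by more, and some turned: with each library left out, that of the signalling genes ranged from -0.25 to 0.40 for Ox-mtDNA against PBS and -0.20 to 0.58 for mtDNA against PBS, and that of the receptors from -0.35 to 0.20 for mtDNA against PBS. Il6 and Il27 gave no value with the filter of 1 CPM. Depth limits Il23a, with 1 to 12 counts a library, Il27, with 6 to 23, and the libraries with few counts of Il6 and Il12b, down to 3 and 4.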
